A study of Mus musculus with 2 samples.

Results

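The 10 genes described here encode titin and proteins that sit beside it: Ttn, Tcap, Csrp3, Ankrd1, Ankrd2, Ankrd23, Myoz2, Ldb3, Xirp1 and Xirp2. They were chosen by symbol, and 9 of the 10 were found among the 19465 genes of the deposited tables. Xirp2 was not analysed here. Gene expression was measured with Visium CytAssist. In it, probes to each mouse gene are transferred from a formalin-fixed, paraffin-embedded tissue section to a separate slide with a grid of capture spots. A spot is a small area of tissue that can hold several cells of different types or parts of them, and each captured probe is counted once through its unique molecular identifier (UMI). The study asked what raised TOP2B in heart muscle cells does to the heart.

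The control section came from an α-MHC-MerCreMer+/− heart. The transgenic section came from an α-MHC-MerCreMer+/− TOP2B LSL/− heart, in which a human TOP2B cDNA lies behind a loxP-flanked stop cassette at the Rosa26 locus under the CAG promoter. Cre is driven by the α-MHC promoter in cardiomyocytes, and the control heart carried the same Cre. Both mice were given 80 mg/kg tamoxifen once. Mice of these lines were 6 weeks old at injection, and the day of harvest of these hearts is not given in the sources used here. Each group is 1 section of 5 μm from 1 mouse, so no difference between the groups has a replicate check and no test was made. All intervals below are 95% intervals for counting error only. The spread over the 4 quadrants of a section, cut at the middle of its spots along both axes of the array, is given as the spread inside that section and not between mice.

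The control section held 1256 spots with 14376300 UMIs, and the transgenic section 924 spots with 12953389 UMIs. The median spot held 11336 and 14531 UMIs, and 1 transgenic spot held none. Mouse Top2b stood at 106 counts per 1e+06 UMIs of the section (CPM) in the control heart and 102 CPM in the transgenic heart, a log2 ratio of −0.07 (−0.17 to 0.04), and whether its probes capture the human transgene is not stated. Defining markers of heart muscle were present in both sections, and 9 cardiomyocyte genes (Tnnc1, Myl3, Mb, Atp2a2, Pln, Ryr2, Tpm1, Ckm and Slc8a1) took 7.35% of all UMIs in the control heart and 3.99% in the transgenic section. These genes did not move alike, with log2 ratios of −1.77 for Mb, −1.66 for Atp2a2, −0.21 for Tnnc1, −0.00 for Tpm1 and 0.84 for Slc8a1. Their sum is therefore not a measure of cardiomyocyte content alone. Fewer cardiomyocytes in a spot and less of an RNA per cardiomyocyte cannot be told apart in such data. Fibroblast markers took 0.0916% of the UMIs in the control heart and 0.376% in the transgenic section, and 3 hemoglobin genes took 0.212% and 2.01%. The atrial markers took 0.00214% and 0.00584% of UMIs. Of the skeletal muscle markers, the adult myosins Myh1, Myh2 and Myh4 had 2 to 6 UMIs each in either section, while Tnnt3 had 18 control and 384 transgenic UMIs and Actn3 had 16 and 56. Over the 15236 genes with at least 20 UMIs in both sections together, the median log2 ratio of transgenic over control CPM was 0.20.

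Titin is a giant spring that runs from the Z-disc, where the thin filaments of neighboring sarcomeres are anchored, to the M-band in the middle of the thick filament. Tcap (telethonin) caps the end of titin at the Z-disc, Csrp3 (muscle LIM protein) and Ldb3 (Cypher or ZASP) are LIM and PDZ-LIM proteins of the Z-disc, and Myoz2 (calsarcin-1) tethers the phosphatase calcineurin to α-actinin. Ankrd1, Ankrd2 and Ankrd23 form the muscle ankyrin repeat protein family, which binds the elastic part of titin and also enters the nucleus, and whose expression is known to respond to stretch. Xirp1 and Xirp2 are the Xin proteins, actin-binding proteins of the intercalated disc, where cardiomyocytes join end to end.

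Start regions of 8 of the 10 genes were given as 11 windows of RefSeq (build GRCm38.p6), each from 250 bases before to 50 bases after a transcript start. No window was given for Tcap and Xirp1. The windows were searched on both strands for the M-CAT element CATTCC, which TEAD factors bind, for TATAAA, for MEF2 sites and CArG boxes, for the AP-1 element TGANTCA and for the E-box CANNTG. The 250 bases before the start are shown for the ankyrin repeat genes, which all stood higher in the transgenic section, and for Myoz2 and Ttn, which stood lower, written along the gene's strand with matches to M-CAT, TATAAA, MEF2 or CArG in capitals. A match is a run of letters and was not tested as a binding site.
Ankrd1, chr19:36119845-36120094, minus strand: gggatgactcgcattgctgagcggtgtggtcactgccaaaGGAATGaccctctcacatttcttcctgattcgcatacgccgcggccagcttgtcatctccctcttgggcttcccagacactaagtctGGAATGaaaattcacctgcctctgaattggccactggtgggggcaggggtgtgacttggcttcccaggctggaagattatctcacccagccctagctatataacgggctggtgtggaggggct
Ankrd2, chr19:42035777-42036026, plus strand: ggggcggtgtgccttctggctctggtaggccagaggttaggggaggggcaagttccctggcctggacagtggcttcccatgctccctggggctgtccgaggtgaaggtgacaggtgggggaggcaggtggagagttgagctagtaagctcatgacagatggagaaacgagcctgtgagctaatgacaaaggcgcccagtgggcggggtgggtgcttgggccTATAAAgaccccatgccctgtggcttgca
Ankrd23, chr1:36535740-36535989, minus strand: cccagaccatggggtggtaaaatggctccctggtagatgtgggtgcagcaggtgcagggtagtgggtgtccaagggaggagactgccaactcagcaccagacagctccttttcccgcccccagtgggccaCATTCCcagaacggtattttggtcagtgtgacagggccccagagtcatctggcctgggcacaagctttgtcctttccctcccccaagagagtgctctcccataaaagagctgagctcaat
Myoz2, chr3:123034988-123035237, minus strand: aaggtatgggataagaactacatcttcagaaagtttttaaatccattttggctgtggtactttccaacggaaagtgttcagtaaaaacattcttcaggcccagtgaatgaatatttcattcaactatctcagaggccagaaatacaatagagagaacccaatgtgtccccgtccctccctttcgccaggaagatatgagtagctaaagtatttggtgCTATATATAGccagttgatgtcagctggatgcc
Ttn, chr2:76982548-76982797, minus strand: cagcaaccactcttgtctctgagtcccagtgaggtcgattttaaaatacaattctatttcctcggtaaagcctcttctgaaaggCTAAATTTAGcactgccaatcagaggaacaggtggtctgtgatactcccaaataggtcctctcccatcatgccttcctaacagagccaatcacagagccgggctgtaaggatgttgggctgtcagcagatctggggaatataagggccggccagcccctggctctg

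The window of Ankrd1 held 2 M-CAT matches, at 210 and 123 bases before the start, where 14.6% of 32544 distinct windows of the genome held at least 1 and 1.36% held 2 or more. Ankrd23 had an M-CAT match 120 bases before the start shown and another 36 bases after its other annotated start. In Ankrd2, the family member with the fewest UMIs, the window had no M-CAT match and a TATAAA match 29 bases before the start, as 13.6% of windows had a TATAAA. The window of Myoz2 had a MEF2 match 33 bases before the start, and that of Ttn had a MEF2 match 166 bases before and an M-CAT match 11 bases after it, where MEF2 matches were in 3.16% of windows. Both overlapping windows of Ldb3 held the same CArG box, found in 1.64% of windows, at 109 and 35 bases before their starts. AP-1 matches stood in the windows of Ldb3, Myoz2 and Xirp2 (7.79% of windows), and neither window of Csrp3 had a match other than E-boxes, which 72.3% of windows held. Among the genes with a window, which leave out Tcap and Xirp1, an M-CAT match was thus present in genes that stood higher and in a gene that stood lower.

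The 9 genes split in opposite directions. The ankyrin repeat genes and Xirp1 were higher in the transgenic section, Tcap, Myoz2, Ldb3 and Ttn were lower, and Csrp3 was within 1.11-fold. The counting interval of the log2 ratio lay above 0 for 5 of the 9 genes, Csrp3 included, and below 0 for 4, where 39.4% and 17% of all 15236 genes had such intervals. Intervals are narrow at these counts, so this share says little by itself. A log2 ratio of at least 1 was found for 3 genes (13.7% of all genes) and of −1 or less for 3 (5.61% of all genes). The median over the 9 genes was 0.16, beside 0.20 over all genes. Together they took 1.46% of the control UMIs and 1.85% of the transgenic UMIs.

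**Figure D1:**
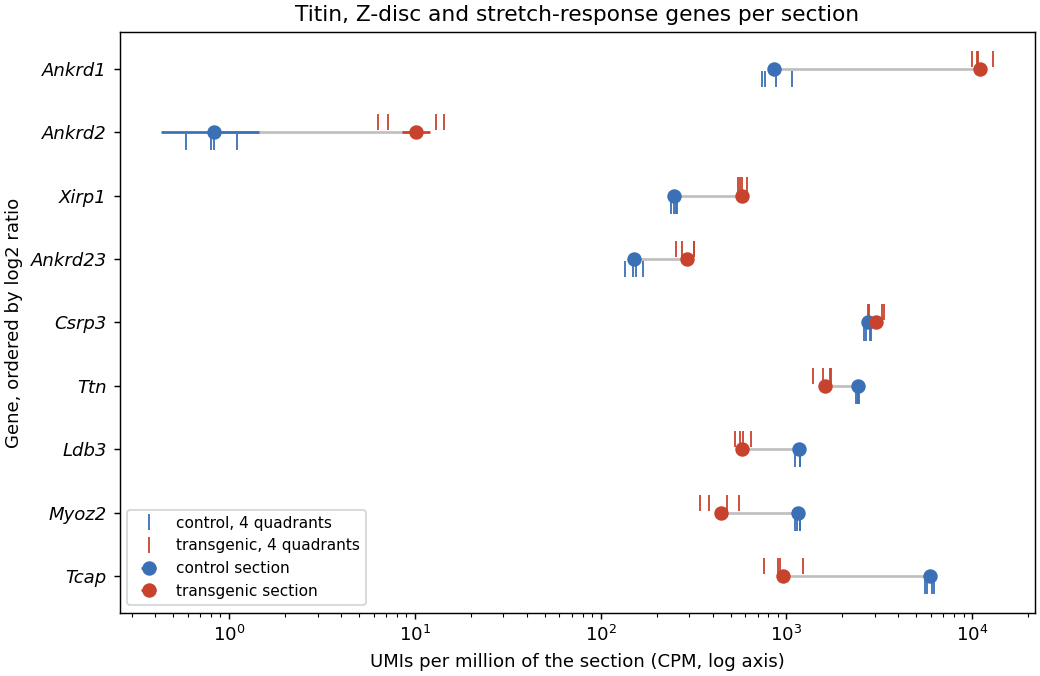
Level of each of the 9 genes in CPM (log axis), as the whole section with its 95% counting interval (points with bars, mostly shorter than the point) and in its 4 quadrants (ticks). For 8 genes all 4 transgenic quadrants lie on the same side of all 4 control quadrants, above for Ankrd1, Ankrd2, Ankrd23 and Xirp1 and below for Ttn, Ldb3, Myoz2 and Tcap. The quadrants of Csrp3 overlap. Levels of different genes are not comparable, since each gene has its own probes.

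Among the ankyrin repeat genes, Ankrd1 had the most UMIs, and its ratio was not distinguishable from that of Ankrd2. It had 12351 UMIs in the control heart and 142771 in the transgenic heart, or 859 CPM (844 to 874) and 11022 CPM (10965 to 11079). Its log2 ratio was 3.68 (3.65 to 3.71), 12.8-fold, the 88th highest of 15236 genes. Only 1.12% of all genes had a log2 ratio of at least 3. Control quadrants, given throughout as upper left, upper right, lower left and lower right, held 1068, 877, 763 and 738 CPM and transgenic quadrants 9986, 10687, 10651 and 12926 CPM, so that the lowest transgenic quadrant was far above the highest control quadrant.

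Ankrd2, the family member best known from slow skeletal muscle, was at very low counts, with 12 UMIs in the control heart and 132 in the transgenic heart. Its level was 0.835 CPM (0.431 to 1.46) and 10.2 CPM (8.53 to 12.1), and the log2 ratio 3.61 (2.76 to 4.60) therefore has a wide interval. The control quadrants held 0.586, 0.798, 0.833 and 1.11 CPM. The transgenic quadrants were uneven, with 13.0 and 14.4 CPM in the upper quadrants and 6.32 and 7.22 CPM in the lower ones. Skeletal muscle genes other than Ckm stood at 10.2 CPM in sum in the control heart and at 47.1 CPM in the transgenic heart, where Tnnt3 made up 384 of 610 UMIs, and the part of any skeletal muscle in the Ankrd2 counts was not tested.

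Ankrd23 differed less than its relatives. It had 2187 UMIs in the control heart and 3759 in the transgenic heart, 152 CPM (146 to 159) and 290 CPM (281 to 299.6). The log2 ratio was 0.93 (0.86 to 1.01). Control quadrants ran from 135 to 170 CPM and transgenic quadrants from 254 to 320 CPM, without overlap. Within the family, which needs no scaling between sections, Ankrd1 made up 84.9% (84.3% to 85.5%) of 14550 UMIs in the control heart and 97.3% (97.3% to 97.4%) of 146662 in the transgenic section. Ankrd23 made up 15.0% (14.5% to 15.6%) and 2.56% (2.48% to 2.65%). The share of Ankrd2 was 0.0825% (0.0426% to 0.144%) and 0.0900% (0.0753% to 0.107%), intervals that overlap.

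Xirp1 had 3578 UMIs in the control heart and 7437 in the transgenic heart. Its level was 249 CPM (241 to 257) and 574 CPM (561 to 587), a log2 ratio of 1.21 (1.15 to 1.26) or 2.31-fold. Its quadrants were the most even of the genes that stood higher, with 238 to 257 CPM in the control heart and 546 to 615 CPM in the transgenic heart. The gap between the sections was wider than the spread inside either of them.

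On the titin side of the Z-disc, Tcap showed the largest difference. It had 84847 UMIs in the control heart and 12433 in the transgenic heart, or 5902 CPM (5862 to 5942) and 960 CPM (943 to 977). Its log2 ratio of −2.62 (−2.65 to −2.59), 6.15-fold lower, was the 31st lowest of 15236 genes, and 0.643% of all genes had a log2 ratio of −2 or less. Control quadrants held 5533, 6099, 5689 and 6259 CPM. Transgenic quadrants held 921, 760, 1228 and 902 CPM, all below the control quadrants, and their highest value was 1.62 times the lowest.

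Titin itself differed much less than its cap. Ttn had 34885 UMIs in the control heart and 20771 in the transgenic heart, 2427 CPM (2401 to 2452) and 1604 CPM (1582 to 1625), a log2 ratio of −0.60 (−0.62 to −0.57). Control quadrants lay within 2378 to 2448 CPM and transgenic quadrants within 1394 to 1742 CPM. Tcap UMIs per Ttn UMI went from 2.43 to 0.599. This quotient compares the sections and not the 2 transcripts, whose probes differ.

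Myoz2 and Ldb3 were lower as well. Myoz2 had 16604 and 5730 UMIs, 1155 CPM (1137 to 1173) in the control heart and 442 CPM (431 to 454) in the transgenic heart, a log2 ratio of −1.38 (−1.43 to −1.34). Its quadrants held 1181, 1116, 1184 and 1142 CPM in the control heart and 476, 343, 558 and 382 CPM in the transgenic heart. The transgenic quadrants of Myoz2 stood in the same order as those of Tcap, Ttn and Ldb3, highest at the lower left and lowest at the upper right. Ldb3 had 16782 and 7512 UMIs, 1167 CPM (1150 to 1185) and 580 CPM (567 to 593), a log2 ratio of −1.01 (−1.05 to −0.97). Its transgenic quadrants, 530 to 641 CPM, were more even than those of Myoz2 and lay below the control quadrants at 1118 to 1189 CPM.

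Csrp3 had 39350 UMIs in the control heart and 39531 in the transgenic heart, 2737 CPM (2710 to 2764) and 3052 CPM (3022 to 3082). The log2 ratio was 0.16 (0.14 to 0.18), and the quadrants of the 2 sections overlapped, with 2603 to 2856 CPM in the control heart and 2746 to 3365 CPM in the transgenic heart. By quadrants, 4 genes lay fully above the control section, 4 fully below it and only Csrp3 did neither, where 30.4% and 13.1% of all genes lay fully above and fully below.

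The ratios shift with the scale, while the distances between genes do not. TMM scaling moved the median of all genes by −0.16, and the ratio of each of the 9 genes by as much. DESeq2 size factors were 1 in both sections, so that setting compares unscaled UMIs. It moved the median and each ratio by −0.15. Relative to the median of all genes, the log2 ratio was 3.48 for Ankrd1, 3.41 for Ankrd2, 1.00 for Xirp1, 0.73 for Ankrd23, −0.05 for Csrp3, −0.80 for Ttn, −1.21 for Ldb3, −1.59 for Myoz2 and −2.82 for Tcap. Csrp3 thus sat at the middle of the genome-wide spread, and by TMM its log2 ratio was −0.00. The summed share of the 9 cardiomyocyte genes was lower in the transgenic section, with single ratios from −1.77 for Mb to 0.84 for Slc8a1. Per UMI of these cardiomyocyte genes, every ratio moved up by 0.88, and the median of all genes came to 1.08. Ankrd1 then stood at 4.56, Xirp1 at 2.09, Ankrd23 at 1.81 and Csrp3 at 1.04. On that scale Ttn changed sign to 0.28, Ldb3 came to −0.13 and Myoz2 to −0.50, and Tcap kept a log2 ratio of −1.74. In cardiomyocyte-rich spots, the upper 50% of each section by share of cardiomyocyte UMIs (628 and 462 spots), Tcap stood at −2.39, Myoz2 at −1.08, Ldb3 at −0.87, Ttn at −0.38, Csrp3 at 0.43, Xirp1 at 1.35 and Ankrd1 at 3.79.

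**Figure D2:**
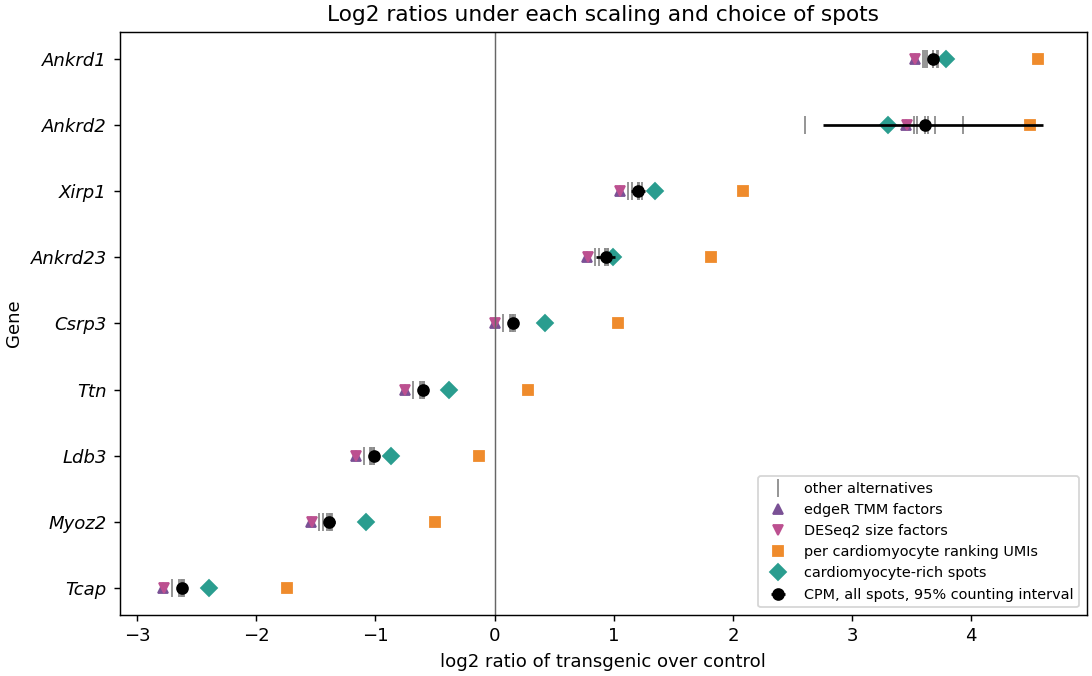
Log2 ratio of transgenic over control for each gene as CPM with its 95% counting interval (black), with edgeR TMM factors, with DESeq2 size factors, per UMI of the cardiomyocyte genes, in the cardiomyocyte-rich spots and under the other alternatives (grey ticks). The range over all alternatives was 3.52 to 4.56 for Ankrd1 and −2.78 to −1.74 for Tcap, and Ttn and Csrp3 are the genes whose sign depends on the scale.

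The balance of Ankrd1 and Tcap UMIs differed between the sections in nearly every spot. Of the UMIs of both genes together, Ankrd1 made up 12.7% (12.5% to 12.9%) in the control heart and 92.0% (91.9% to 92.1%) in the transgenic section. More Ankrd1 than Tcap UMIs were found in 1 of 1256 control spots and in 915 of 924 transgenic spots. Over the 1243 control spots with at least 20 UMIs of both genes together, the share of Ankrd1 had a median of 10.99% and ran from 4.41% at the 10th percentile to 23.0% at the 90th. Over the 883 such transgenic spots the median was 92.7%, from 85.5% to 95.7%. These shares depend on no scaling between sections, but on the probes of both genes, so they compare the sections and not the levels of the genes.

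**Figure D3:**
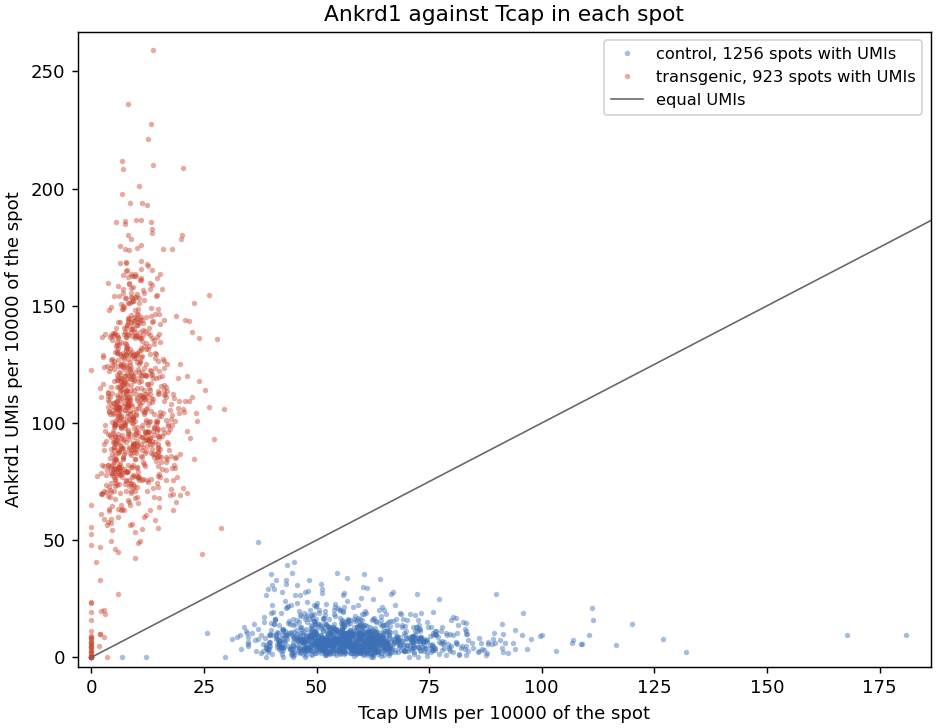
Ankrd1 against Tcap in UMIs per 10000 of the spot, with each point 1 spot that held UMIs and the line marking equal UMIs. Control spots lie along the Tcap axis, with 1 spot above the line, and transgenic spots along the Ankrd1 axis. The 4 control spots without a UMI of either gene lie at the origin. The points near the origin are mostly transgenic spots with few UMIs of either gene.

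The difference was spread over the tissue and not limited to a few spots. Ankrd1 had a median of 7.13 UMIs per 10000 over control spots, with 2.71 at the 10th and 16.1 at the 90th percentile, and a median of 106 over transgenic spots, with 69.1 and 149. For Tcap the median was 57.1 (44.2 to 73.8 between the same percentiles) over control spots and 8.84 (4.02 to 15.8) over transgenic spots. For either gene these ranges did not meet. Csrp3 had a median of 26.8 (19.8 to 34.6) and 29.8 (15.3 to 44.2), and Ttn of 23.1 (16.3 to 32.2) and 15.2 (8.75 to 23.0).

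Most genes were detected in nearly every spot of both sections, so the share of spots with a UMI was informative only for the genes with few counts. Ankrd2 was found in 12 of 1256 control spots, 0.955% (0.495% to 1.66%), never with more than 1 UMI, and in 112 of 924 transgenic spots, 12.1% (10.1% to 14.4%), with up to 5 UMIs. With every spot drawn down to 8134 UMIs, and without the 140 control and 78 transgenic spots that were shallower, the shares were 0.627% and 8.51%. Ankrd23 was found in 75.5% (73.0% to 77.8%) and 91.5% (89.5% to 93.2%) of spots, and in 66.9% and 87.7% after thinning. Xirp1 was found in 89.6% (87.8% to 91.3%) and 95.9% (94.4% to 97.1%), and in 83.5% and 98.8% after thinning. For Tcap the share was 99.7% and 96.3%, so that the gene was still seen in nearly all spots at its lower level.

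The 34 transgenic spots without a Tcap UMI carried mostly hemoglobin UMIs. The hemoglobin genes took 75.1% of their UMIs and cardiomyocyte genes 0.460%, against 1.33% and 4.02% in the 890 other spots, and their median depth was 3205 UMIs against 14646. They held no Ankrd2 UMI and 47 Csrp3 UMIs, or 393 CPM against 3077 CPM in the other spots. Ankrd1 was found in 26 of the 34, with 179 UMIs or 1496 CPM, against 11111 CPM in the other spots. Ankrd1 and Csrp3 thus both had a far lower CPM in these spots, and the cardiomyocyte genes a far lower share. Hemoglobin UMIs are part of the total, so their share of 75.1% by itself lowers these values for every other gene. Levels per UMI other than hemoglobin were not computed here. The control section had 4 such spots, with a median of 31.5 UMIs and none of Ankrd1.

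**Figure D4:**
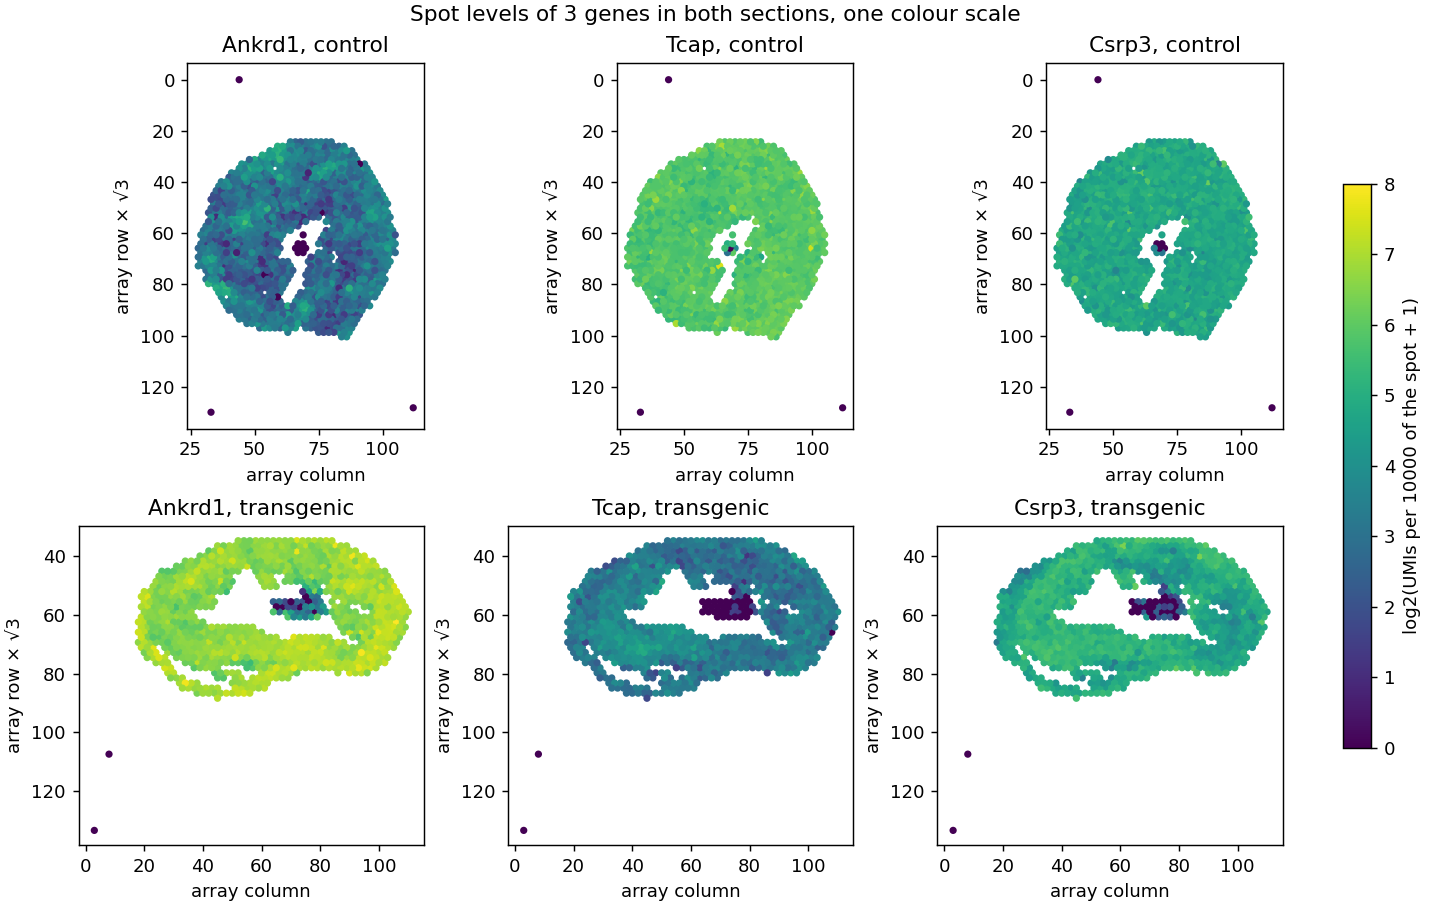
Spot maps of Ankrd1, Tcap and Csrp3 in both sections, with array column and row as axes and log2(UMIs per 10000 of the spot + 1) as color on a scale shared by all panels. Ankrd1 is patchy in the control heart and high over the whole wall of the transgenic section, Tcap shows the reverse difference in level, and Csrp3 has a like level in both but is more uneven in the transgenic section. The darkest spots of the transgenic section hold few UMIs of these genes for their total.

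Ankrd1 was already uneven in the control heart. The deposited Moran's I, a score that is higher the more neighboring spots resemble each other, was 0.36 for Ankrd1 in the control section, the 6th highest of 12242 genes with at least 20 UMIs there. The other 7 ranked genes had values from 0.01 for Xirp1 to 0.13 for Myoz2, beside a median of 0.0024 over all genes. Beyond counting error, the level of Ankrd1 varied between control spots with a coefficient of variation of 62.9%. Next came its relative Ankrd23 with 42.2% and Xirp1 with 27.7%. The coefficient was 14.9% for Myoz2, 16.5% for Csrp3, 18.8% for Tcap, 21.0% for Ldb3 and 22.0% for Ttn. In the transgenic section Ankrd1 was no longer the most uneven of these. There it was 28.6% for Ankrd1 against 39.0% for Tcap, 39.1% for Myoz2, 32.6% for Csrp3 and 27.5% for Ttn. Ankrd23 had 35.6%, Xirp1 28.4% and Ldb3 20.4%. In the cardiomyocyte-rich spots of the control and transgenic heart the coefficient was 56.9% and 24.2% for Ankrd1 and 18.7% and 34.0% for Tcap. It was 13.7% and 31.4% for Myoz2, and 17.3% and 19.7% for Csrp3. The wider spread of Tcap and Myoz2 was thus also present within the cardiomyocyte-rich spots, and that of Csrp3 mostly was not.

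Moran's I was higher in the transgenic section for the 8 genes with at least 20 UMIs in each section, and so it was for 81.3% of all 11809 such genes. The values there were 0.59 for Ankrd1, 0.61 for Csrp3, 0.57 for Ttn, 0.55 for Tcap, 0.43 for Myoz2, 0.37 for Ldb3, 0.35 for Xirp1, 0.28 for Ankrd23 and 0.09 for Ankrd2. The median of all genes was 0.02 there. The rank of Ankrd1 went from 6th of 12242 genes to 74th of 12441, that of Myoz2 from 61st to 225th and that of Ankrd23 from 85th to 460th. Ttn (146th and 88th), Tcap (119th and 101st) and Csrp3 (74th and 58th) ranked higher in the transgenic heart, as did Ldb3 (388th and 294th) and Xirp1 (2875th and 313th). In the same section the level of each gene except Ankrd2 was lower in spots with a higher hemoglobin share, with r from −0.60 for Ankrd1 to −0.35 for Ankrd23 over 924 spots. Both values are shares of the same spot total, which can make r negative by itself. In the control heart these correlations of the same 8 genes were between −0.24 and −0.07. Moran's I without those spots was not computed here.

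Spot correlations between the genes were taken as Pearson's r of log2(UMIs per 10000 + 1), over spots of 1 section that share a library and are neighbors of each other, and are descriptions only. Without Ankrd2, whose counts are too sparse, the mean r over all pairs was 0.21 over the 1256 control spots and 0.52 over the 924 transgenic spots. In the control section the mean was 0.31 among the 4 genes that stood lower (Ttn, Tcap, Myoz2, Ldb3), 0.11 among Ankrd1, Ankrd23 and Xirp1, and 0.13 between the groups. In the transgenic section these means were 0.56, 0.46 and 0.44. The control order did not hold in other settings. For the lower and the higher genes, the control means were 0.019 and 0.078 by Spearman's rank correlation and 0.020 and 0.049 after thinning. Over interior control spots they were 0.053 and 0.089. In control spots of at least 1000 UMIs, the mean over all pairs was 0.083, beside 0.21 over all control spots. Ankrd1 and Tcap had an r of 0.63 in the transgenic section. Their r of 0.11 in the control section was negative under each of 6 other settings, between −0.12 and −0.050.

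These values were much lower within the cardiomyocyte-rich spots, a choice that narrows the range of muscle content and can lower r by itself. Over the interior transgenic spots the mean over all pairs was 0.46. In the cardiomyocyte-rich spots the mean was 0.07 among the higher genes, −0.01 among the lower genes and 0.00 between them in the control section, and 0.26, 0.12 and −0.01 in the transgenic section. Ankrd1 and Tcap then had an r of −0.10 and −0.02. In the transgenic cardiomyocyte-rich spots r was 0.33 for Ankrd1 with Ankrd23, 0.29 for Ankrd1 with Xirp1 and 0.30 for Tcap with Myoz2. Csrp3 had an r of 0.24 with Tcap, 0.21 with Ankrd23, 0.20 with Ankrd1 and 0.18 with Xirp1, so it went with genes of both directions. Ankrd23 and Myoz2 had an r of −0.13. The pair Ankrd1 and Ankrd23 had an r of 0.27 over all control spots and 0.26 over the cardiomyocyte-rich ones, and 0.25 by Spearman's rank correlation.

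**Figure D5:**
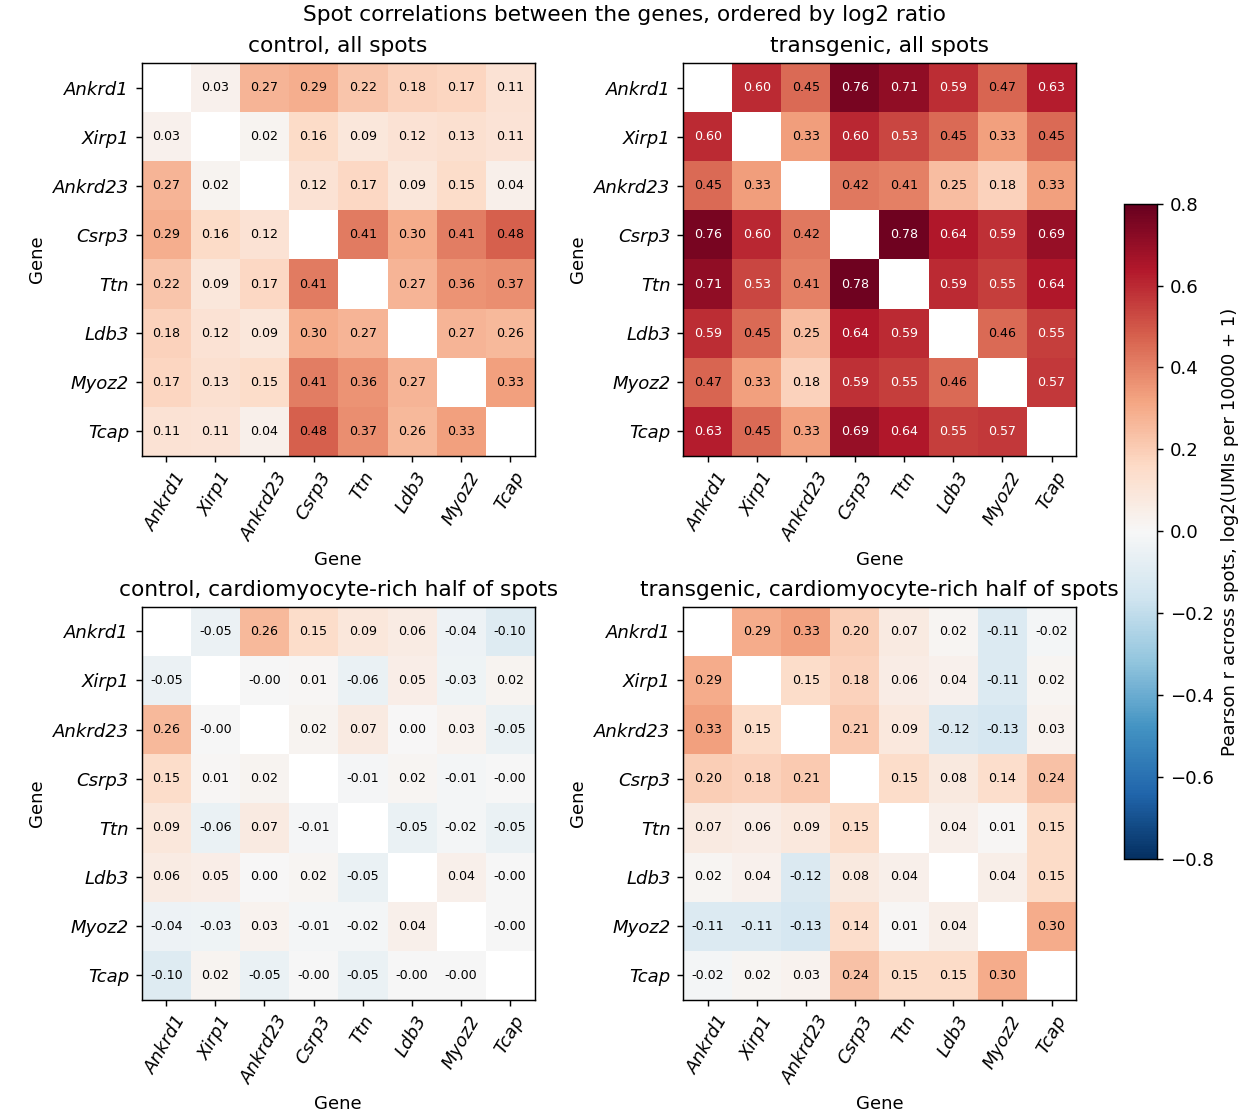
Pearson's r across spots for each pair of 8 genes, ordered by log2 ratio from Ankrd1 to Tcap, over all spots (upper panels) and over the cardiomyocyte-rich spots (lower panels) of the control (left) and transgenic section (right). The positive values over all transgenic spots, such as 0.63 for Ankrd1 and Tcap, are smaller over the cardiomyocyte-rich spots, where the highest in the transgenic section is 0.33 for Ankrd1 and Ankrd23.

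The genes whose spot pattern was most like that of Ankrd1 differed between the sections. In the control section they were Acta1 (skeletal α-actin, r = 0.48), Myl12a (a non-sarcomeric myosin light chain, 0.37), Nppa (atrial natriuretic peptide, 0.34), Hspb7 (a small heat shock protein of muscle, 0.33) and Tnnc1 (cardiac troponin C, 0.33), out of 7221 genes over 1256 spots. In the transgenic section they were Tpm1 (0.85), Tnnt2 (0.84), Aldoa (0.83), Des (0.81) and Myh7 (0.79), out of 7590 genes over 924 spots. Over the same spots Ankrd1 had an r of 0.81 with the summed cardiomyocyte genes, against 0.16 in the control section. The part of muscle-poor spots in the difference between these neighbors was not tested. The log2 ratio between the sections was −0.00 for Tpm1, 0.17 for Tnnt2, −0.07 for Aldoa, 1.52 for Des and 7.87 for Myh7, and for the control neighbors it ran from −0.21 for Tnnc1 to 6.21 for Nppa. For Tcap the closest genes were Myl2 (0.62), Tpm1, Mb, Cryab and Pln (0.52) in the control heart and Myl2 (0.74), Fabp3, Myh6, Tnni3 and Pln (0.72) in the transgenic section. The log2 ratios of these genes ran from −1.77 for Mb to −0.00 for Tpm1 among the control neighbors and from −1.92 for Tnni3 to −1.03 for Pln among the transgenic ones. Tcap itself had an r of 0.60 in the control and 0.43 in the transgenic section with the log2 total UMIs of the spot. The part of spot depth in its closest genes was not tested.

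Levels also varied with position in the wall. For Csrp3 the range over layers of spots in the transgenic section, though not in the control section, exceeded the difference between the sections. Edge spots, which lack a full set of 6 neighbors over tissue, held 911 CPM of Ankrd1 against 851 CPM in interior spots of the control section, and 10758 against 11125 CPM in the transgenic section. Tcap held 6112 and 5868 CPM in the control heart and 945 and 966 CPM in the transgenic heart. Among the genes whose interval left out 0, Ankrd23 differed most, with a log2 ratio of edge over interior of −0.29 (−0.49 to −0.10) in the control heart and −0.22 (−0.33 to −0.11) in the transgenic heart. Its level in the transgenic heart was 260 CPM at the edge, 284, 297 and 326 CPM in the next layers of spots and 384 CPM in the 29 deepest spots. Csrp3 held between 2873 and 3251 CPM in the 4 outer layers of the transgenic heart and 3659 CPM in the deepest. Its control layers stayed within 2673 to 2770 CPM. Its log2 ratio of edge over interior was −0.02 (−0.07 to 0.02) in the control heart and 0.00 (−0.03 to 0.04) in the transgenic heart. Myoz2 ran from 416 to 598 CPM in the transgenic section and stayed within 1101 to 1179 CPM in the control section. Hemoglobin UMIs were higher at the edge, at 32492 CPM against 15321 CPM inside the transgenic section, and their part in these gradients was not tested.

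Other genes of the same structures were taken from lists of partners, and they also split. Of 17 Z-disc partners with at least 20 UMIs (of 19 listed), the counting interval lay above 0 for 9 and below 0 for 7 (39.4% and 17% of all genes), with a median log2 ratio of 0.27. At its ends, where a gene had to reach 200 UMIs in 1 of the sections, stood Pdlim3, an α-actinin-binding PDZ-LIM protein, with 372 UMIs in the control and 4411 in the transgenic section (3.72, 3.57 to 3.87), and Fhl2, a LIM protein that binds titin, with 31669 and 5268 UMIs (−2.44, −2.48 to −2.40). The calsarcins themselves parted, as Myoz1, a skeletal muscle relative of Myoz2 named after its values were seen, went from 40 to 260 UMIs (2.85, 2.37 to 3.37). Mypn (myopalladin), which binds Ankrd1 and was named in the same way, had a log2 ratio of −1.46 (−1.60 to −1.32), opposite to that of Ankrd1.

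Of 15 partners of titin and the M-band, 7 had intervals above 0 and 6 below 0, beside 39.4% and 17% of all genes, with a median of 0.13. By the same limit of 200 UMIs, Fhl1, another LIM protein of the titin spring, was highest at 1.21 (1.13 to 1.29) and Cmya5 (myospryn), a large muscle scaffold, lowest at −1.89 (−2.01 to −1.78). The M-band gene Myom3, named after its values were seen, stood higher on 12 and 85 UMIs (2.97, 2.10 to 3.98). Of 12 genes listed for Xin and the intercalated disc, among them the thin filament gene Tmod1, 7 had intervals above 0 and 5 below 0. The shares over all genes were the same 39.4% and 17%. The 12 genes had a median of 0.37 and none was past a log2 ratio of 1 in either direction. Dsp (desmoplakin), the linker of desmosomes to intermediate filaments, was highest at 0.96 (0.93 to 1.00) and Tmod1 (tropomodulin), which caps thin filaments, lowest at −0.98 (−1.05 to −0.92). Xirp1 therefore stood above all 12 genes of this list.

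The stretch-responsive genes stood apart from these lists in direction. All 13 of the 14 listed genes that had at least 20 UMIs were higher in the transgenic section with intervals above 0, where 39.4% of all genes had such intervals, and 9 had a log2 ratio of at least 1, where 13.7% of all genes did. Their median was 2.52. The list was chosen with earlier results of these data known, so these counts describe it and are not independent support. Nppa was highest, with 3935 and 262300 UMIs (6.21, 6.16 to 6.25), and Lats2, a kinase of the Hippo pathway, lowest, with 339 and 374 UMIs (0.29, 0.08 to 0.51). Ccn2 (connective tissue growth factor) is known as a target of the same TEAD factors as Ankrd1 and was named after its values were seen, at 1589 and 29509 UMIs (4.37, 4.29 to 4.44). Fibroblasts also express Ccn2, their markers took 0.376% of the transgenic UMIs against 0.0916% in the control heart, and their part in this result was not tested. Acta1, the gene nearest to Ankrd1 across control spots, went from 3532 to 19580 UMIs (2.62, 2.57 to 2.67).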

How the data were processed

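Visium CytAssist sections of 1 control and 1 transgenic heart were analysed from the deposited counts of UMIs per gene and spot, which the authors made with Space Ranger 2.0.0 on mm39 (GRCm39) per the labels, with no further normalization. Moran's I was deposited by the authors as a score per gene for each section and used as given, and its deposited p-values were not used. UMIs were summed per section and divided by the section total (CPM, per 1e+06 UMIs). Genes needed at least 20 UMIs over both sections. Levels have exact Poisson, log2 ratios exact conditional binomial and shares Clopper–Pearson intervals at 95%, for counting error only. A count of 3 equals 0.209 and 0.232 CPM and was the floor. The Wilcoxon rank-sum comparison named in the methods takes spots as samples and was left out, because spots of 1 section are not replicates.

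All 10 listed genes were to be named, with the highest and lowest gene of each partner list among genes of at least 200 UMIs in either section, and the 5 genes most like Ankrd1 and Tcap across spots. The genes and lists were chosen with earlier results of these data known. Cardiomyocyte-rich spots are the upper 50% by share of the cardiomyocyte genes. Spatial barcodes mark array positions, and 725 were in use in both sections.

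The ratio and interval computation was tested on simulated data. Python 3.11.15, numpy 2.4.6, scipy 1.17.1, pandas 2.3.3, R 4.3.3, edgeR 4.0.16 and DESeq2 1.42.0 were used, the last 2 for scaling factors only. Alternatives were TMM factors (0.947 and 1.06), DESeq2 size factors (1 and 1, which leaves the UMIs unscaled) and totals without the 50 most abundant genes. The others were a cardiomyocyte denominator, subsets of spots, a mean over spots and 1 CPM added. Promoter windows came from RefSeq on GRCm38.p6, and no coordinates were carried between builds.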

Additional observations from a re-analysis of the deposited data

How the results depend on the processing

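With 1 section per group, no alternative carries a test. No paired analysis was possible because each group has 1 section. Over 11 alternatives, the log2 ratio kept its sign for Ankrd1, Ankrd2, Ankrd23, Xirp1, Tcap, Myoz2 and Ldb3, with ranges of 3.52 to 4.56, 2.61 to 4.49, 0.77 to 1.81, 1.05 to 2.09, −2.78 to −1.74, −1.54 to −0.50 and −1.17 to −0.13. Csrp3 reversed to −4.4e-05 with TMM factors, and Ttn to 0.28 per cardiomyocyte UMI. On that denominator 5 genes had a log2 ratio of at least 1 and 1 of −1 or less. The median of all genes was 1.08 there, so a log2 ratio of at least 1 was common among all genes. The shares of all genes past these limits on that denominator were not computed here. Spots poor in hemoglobin (the lower 50%) and spots of at least 1000 UMIs for correlations were chosen after seeing the data.

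The median log2 ratio of Z-disc partners was 0.11 with TMM, 0.12 with DESeq2 factors and 0.16 in cardiomyocyte-rich spots. That of titin and M-band partners was −0.023 with TMM and −0.016 with DESeq2 factors, 0.20 in cardiomyocyte-rich spots and 0.027 over genes with at least 200 UMIs, so its sign depends on the scale. The median of the list for Xin and the intercalated disc was 0.22 with both factors, and that of stretch-responsive genes 2.18 over genes with at least 1 UMI.

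The mean correlation of gene pairs in the control section was 0.045 by Spearman, 0.012 at thinned depth, 0.058 in interior spots, 0.070 given the cardiomyocyte share, 0.012 in cardiomyocyte-rich spots and 0.083 in spots of at least 1000 UMIs. In that order, Ankrd1 and Tcap stood at −0.075, −0.12, −0.056, −0.050, −0.10 and −0.063 there, reversed in each. In the transgenic section the mean was 0.26, 0.15, 0.46, 0.10 and 0.089 for the first 5 of these settings, and Ankrd1 and Tcap stood at 0.21, 0.17, 0.55, 0.21 and −0.016, the last reversed. In transgenic spots of at least 1000 UMIs these were 0.51 and 0.61, close to the values over all spots. Ankrd2 rests on 12 control UMIs.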
